A study of Mus musculus with 8 samples.

Results

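Gas6, protein S (gene Pros1) and the receptors Axl, Mertk and Tyro3 were described in mouse liver as a ligand and receptor family. The 5 genes were taken by symbol from the 16796 genes listed in the files, and all 5 were found and passed the filter on low counts. Gas6 was selected on its CPM and FPKM in this very contrast, where it was lower in E4bp4-LKO, so its values below are a description without a test, and the other 4 members were added as its family. Whole liver RNA was sequenced from 8 mice on a diet that induces non-alcoholic steatohepatitis (NASH), begun at 2 months of age and kept for 20 weeks. Wild type livers (WT, mice 164, 165, 166 and 167) were compared with livers labelled as a liver knockout of E4bp4 (E4bp4-LKO, mice 143, 144, 145 and 179), and no group on another diet was analysed. The labels do not state which promoter drove the deletion, nor the strain, sex or litters, and the mice are taken as separate animals. E4bp4, the product of Nfil3, is a basic leucine zipper transcription factor that can repress genes through D-box elements.

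Gas6 and protein S are secreted vitamin K-dependent proteins. Their Gla domain binds phosphatidylserine on dying cells and on activated membranes, and their other end binds receptor tyrosine kinases named TAM after Tyro3, Axl and Mertk. The receptors promote engulfment of dead cells and dampen inflammatory signalling, and Axl and Mertk can be shed from the cell surface by proteases. Gas6 is the high-affinity ligand of Axl and also binds the other receptors, whereas protein S acts through Mertk and Tyro3 and is better known as a plasma anticoagulant made in hepatocytes. In liver, Axl is known from stellate cells and macrophages and Mertk from macrophages, and both have been studied in fibrosis.

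The start regions of the ligands and of Axl are shown because Gas6 and Axl were lower in E4bp4-LKO and Pros1 was not. Each sequence runs from 250 bases before to 50 bases after the annotated start, on the gene's strand, 5′ to 3′, from the RefSeq table for GRCm38.p6. Capitals mark GC boxes, searched as GGGCGG on both strands, with overlapping matches each counted. Gas6 lies on chromosome 8 (chr8:13494486-13494785, minus strand), Pros1 on chromosome 16 (chr16:62854057-62854356, plus strand) and Axl on chromosome 7 (chr7:25788684-25788983, minus strand).
Gas6: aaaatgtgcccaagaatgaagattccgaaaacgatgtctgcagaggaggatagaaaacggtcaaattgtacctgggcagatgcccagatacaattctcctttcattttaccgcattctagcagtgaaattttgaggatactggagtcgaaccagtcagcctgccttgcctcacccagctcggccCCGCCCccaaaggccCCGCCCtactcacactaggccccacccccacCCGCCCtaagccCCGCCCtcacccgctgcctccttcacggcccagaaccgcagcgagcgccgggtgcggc
Pros1: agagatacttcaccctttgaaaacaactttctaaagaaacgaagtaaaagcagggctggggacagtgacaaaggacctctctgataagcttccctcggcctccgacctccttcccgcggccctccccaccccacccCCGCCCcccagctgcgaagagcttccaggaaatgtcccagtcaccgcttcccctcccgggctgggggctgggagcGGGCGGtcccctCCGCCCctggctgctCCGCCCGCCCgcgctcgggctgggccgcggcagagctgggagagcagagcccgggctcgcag
Axl: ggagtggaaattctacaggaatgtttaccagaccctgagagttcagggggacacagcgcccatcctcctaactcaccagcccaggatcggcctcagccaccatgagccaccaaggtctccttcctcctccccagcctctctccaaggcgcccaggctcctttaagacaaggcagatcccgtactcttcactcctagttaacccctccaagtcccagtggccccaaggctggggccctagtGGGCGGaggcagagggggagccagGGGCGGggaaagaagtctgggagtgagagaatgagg

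The Gas6 window held 4 GC boxes at a GC content of 58.3%, the Pros1 window 5 at 66.7% and the Axl window 2 at 60.3%. The windows of Mertk and Tyro3, both on chromosome 2, held 4 and 6 GC boxes at a GC content of 66.0% and 73.3%. At least 1 GC box stood in 35.7% of the 32851 promoter windows in the table. The D-box pattern TTANNTAA, which includes the site TTATGTAA, was in 0 of the 5 member windows and in 6.0% of all windows. TTATGTAA itself was in 0.938% of all windows. These are matches of letters in a short window and carry no measurement of E4bp4 binding.

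The libraries held 23805540 to 32290265 expected counts, so that 3 counts, taken as the floor of detection, stood for 0.0929 to 0.126 CPM, counts scaled to the library. Nfil3 itself spanned 8.79 to 16.5 CPM across WT livers and 3.33 to 6.22 CPM across E4bp4-LKO livers, without overlap, so the RNA agreed in direction with the labels. Hepatocyte markers were the most abundant of the marker lists, at a summed 56130 to 90761 CPM in the 8 libraries. The scaling factors of edgeR's trimmed mean method (TMM) were 1.16 in WT 164 and 1.09 in WT 165, against 0.94 to 1.00 in the other 6 libraries. For this reason each comparison was also made without WT 164 and 165.

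Among the ligands, Gas6 was lower in every E4bp4-LKO liver, whereas Pros1 stood at nearly the same level in both groups. Gas6 was at 168, 124, 117 and 144 CPM in WT mice 164, 165, 166 and 167. It was at 52.0, 60.0, 65.5 and 51.8 CPM in E4bp4-LKO mice 143, 144, 145 and 179. Every WT liver was thus above every E4bp4-LKO liver, and the spread was wider among WT livers. The group means were 138 ± 22.7 CPM (SD, n = 4) in WT and 57.3 ± 6.64 CPM (SD, n = 4) in E4bp4-LKO, a ratio of 2.42. The fitted log2 fold change was -1.27 (SE 0.12), on 1160 to 5808 expected counts per library. It ranged from -1.34 to -1.16 with each mouse left out in turn and was -1.18 without WT 164 and 165. In RNA from whole liver, fewer cells of a type and less RNA per cell cannot be told apart.

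Pros1 was at 84.6, 92.0, 86.3 and 91.5 CPM in WT mice 164 to 167, taken in that order. The E4bp4-LKO livers 143, 144, 145 and 179 had 88.6, 82.1, 84.4 and 95.7 CPM. The groups overlapped throughout, and the highest and the lowest value both came from E4bp4-LKO livers. The means were 88.6 ± 3.72 and 87.7 ± 5.96 CPM (SD, n = 4 each), with a log2 fold change of -0.02 (SE 0.07, 95% interval -0.17 to 0.14, edgeR adjusted p = 0.917). The interval for this ligand held 0.

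**Figure D1:**
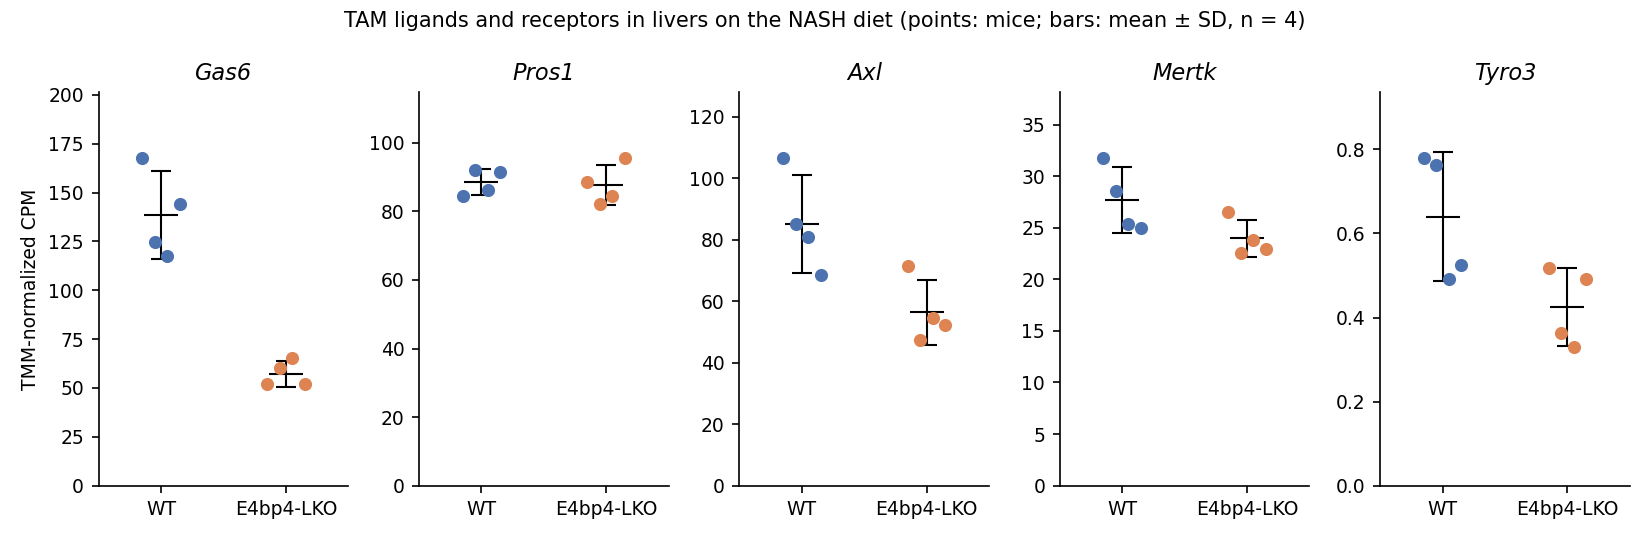
Level of each member in each liver, in TMM-normalised CPM (y axis, with its own scale in each panel), in WT and E4bp4-LKO. Points are single mice and bars give the mean and SD of 4. The Gas6 points of the groups are apart, Pros1 points lie together, and those of Axl, Mertk and Tyro3 overlap.

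Among the receptors, Axl fell by 0.60 on the log2 scale, while Mertk and Tyro3 did not pass the test. Axl was at 107, 85.0, 80.9 and 68.5 CPM in WT mice 164, 165, 166 and 167. It was at 71.5, 47.3, 54.5 and 52.3 CPM in E4bp4-LKO mice 143, 144, 145 and 179. The groups overlapped only through E4bp4-LKO 143, which stood above WT 167. The means were 85.3 ± 15.9 and 56.4 ± 10.5 CPM (SD, n = 4 each), a ratio of 1.51 (log2 fold change -0.60, SE 0.15, 95% interval -0.93 to -0.26, edgeR adjusted p = 0.0340). DESeq2 gave an adjusted p of 0.00319 for Axl.

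The Axl call rested on most of the libraries. It remained in edgeR without E4bp4-LKO 143 (adjusted p = 0.0129) or WT 167 (0.0174). It was lost without WT 164 (adjusted p = 0.0627), WT 165 (0.0823), WT 166 (0.0520), E4bp4-LKO 144 (0.0972), E4bp4-LKO 145 (0.0823) or E4bp4-LKO 179 (0.0873), with a log2 fold change of -0.73 to -0.47 over the 8 fits. Without both WT 164 and WT 165 the log2 fold change was -0.40 (edgeR adjusted p = 0.219).

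Mertk was at 31.8, 28.6, 25.4 and 25.0 CPM in WT mice 164, 165, 166 and 167. It was at 26.5, 22.6, 23.9 and 22.9 CPM in E4bp4-LKO mice 143, 144, 145 and 179. WT 164 and 165 were above all E4bp4-LKO livers, and the other WT livers lay below E4bp4-LKO 143. The means were 27.7 ± 3.17 and 24.0 ± 1.79 CPM (SD, n = 4 each). Mertk had a log2 fold change of -0.21 (SE 0.09, 95% interval -0.41 to -0.0041). Its edgeR p was 0.0463 unadjusted and 0.170 adjusted. With single mice left out, the edgeR adjusted p was 0.112 to 0.394. The log2 fold change was -0.13 without WT 164, -0.067 without WT 164 and 165 (edgeR adjusted p = 0.755) and -0.38 with library totals in place of TMM (0.0751).

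Tyro3, best known from brain, was close to the limit of these libraries, with 9 to 27 expected counts each. It was at 0.780, 0.763, 0.491 and 0.525 CPM in WT mice 164, 165, 166 and 167. It was at 0.518, 0.362, 0.331 and 0.491 CPM in E4bp4-LKO mice 143, 144, 145 and 179. The groups overlapped, again with WT 164 and 165 highest. The log2 fold change was -0.60, equal in size to that of Axl but with an SE of 0.30 (95% interval -1.27 to 0.07, edgeR adjusted p = 0.221), so a change of that size was not resolved at this depth. Without WT 164 and 165 it was -0.26 (edgeR adjusted p = 0.777).

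Of the 13244 genes tested in edgeR, 6.48% were called lower and 4.36% higher in E4bp4-LKO, or 10.8% in either direction. Scaled by library totals instead, the split of calls was 1660 lower and 291 higher, against 858 and 578. At an unadjusted p under 0.05, 15.2% were lower and 13.1% higher. DESeq2 called 8.89% of its genes lower and 6.86% higher, and limma on FPKM 13.0% and 2.38%. The members called lower were Gas6, whose fall was the reason for choosing it, and Axl, and 0 of 5 were called higher. At an unadjusted p under 0.05, 3 of the 5 were lower (Gas6, Axl and Mertk) and 0 higher. DESeq2 and limma on FPKM each called 2 lower and 0 higher. Gas6 was the 1 member whose groups did not overlap, which its selection had fixed. Of all genes tested, 9.69% were lower without overlap. The median log2 fold change of the 4 members other than Gas6 was -0.40, or -0.16 without WT 164 and 165, and that of all genes tested was 0.01.

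Levels of different genes were set side by side as FPKM, a level scaled by transcript length and library. In all 4 WT livers the order from the highest was Gas6, Pros1, Axl, Mertk and Tyro3. In all 4 E4bp4-LKO livers the 2 ligands were exchanged and the rest of the order was the same. Mean WT FPKM was 56.5 ± 12.7 for Gas6, 28.4 ± 1.95 for Pros1, 18.0 ± 4.68 for Axl, 8.20 ± 1.58 for Mertk and 0.168 ± 0.0499 for Tyro3 (SD, n = 4). The ranges of neighbours in that WT order did not overlap.

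Mean E4bp4-LKO FPKM was 25.2 ± 1.74 for Pros1, 20.8 ± 2.33 for Gas6, 10.6 ± 2.12 for Axl, 6.32 ± 0.547 for Mertk and 0.0975 ± 0.0206 for Tyro3 (SD, n = 4). Here the ranges of Pros1 (23.41 to 27.31) and Gas6 (18.68 to 23.73) overlapped, although Pros1 was above Gas6 within each liver. The ranges of the other neighbours did not overlap. By mean FPKM among the 16796 genes listed, Gas6 ranked 1219 in WT and 2634 in E4bp4-LKO, and Pros1 ranked 2198 and 2292. Axl ranked 3150 and 4320, Mertk 5442 and 5889, and Tyro3 13176 and 13436.

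The balance of the ligands followed Gas6. The Gas6 to Pros1 ratio of FPKM was 2.51, 1.71, 1.72 and 1.99 in WT mice 164, 165, 166 and 167, and 0.743, 0.924, 0.980 and 0.684 in E4bp4-LKO mice 143, 144, 145 and 179. Every WT liver had more Gas6 than Pros1 and every E4bp4-LKO liver had less. Gas6 made up 66.1 ± 3.95% of the summed ligand FPKM in WT and 45.2 ± 4.25% in E4bp4-LKO, and the ligand sum itself was 84.9 ± 13.9 and 46.0 ± 1.36 FPKM (SD, n = 4 each). These ratios use Gas6 and are given as a description. FPKM are not TMM-normalised, and Pros1 had a log2 fold change of -0.17 in limma on FPKM, against -0.02 in edgeR. Differences between groups in summed FPKM, of ligands here and of receptors below, carry this shift in scaling.

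The makeup of the receptors did not use Gas6 and was tested over the 8 livers. Axl made up 69.9, 67.6, 69.1 and 65.6% of the summed receptor FPKM in WT mice 164, 165, 166 and 167. Its share was 65.4, 59.5, 61.7 and 61.5% in E4bp4-LKO mice 143, 144, 145 and 179. The groups did not overlap, but WT 167 and E4bp4-LKO 143 nearly met. The mean share was 68.0 ± 1.90% against 62.0 ± 2.46% (SD, n = 4 each), a difference of -6.03 percentage points (exact two-sided permutation test over livers, p = 0.0286, the smallest that 70 arrangements allow). Mertk held nearly all of the remainder, and Tyro3 held 0.48 to 0.73%. Summed receptor FPKM spanned 20.26 to 34.78 across WT livers and 14.76 to 20.86 across E4bp4-LKO livers, so the sums overlapped.

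The lower Axl share kept its direction in every fit run. The exact permutation p became 0.0571 without WT 164, 165, 166 or 167 or E4bp4-LKO 144, each left out alone, and stayed at 0.0286 without E4bp4-LKO 143, 145 or 179. Without both WT 164 and 165 the difference was -5.34 percentage points (exact permutation p = 0.0667, the smallest possible with those livers).

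**Figure D2:**
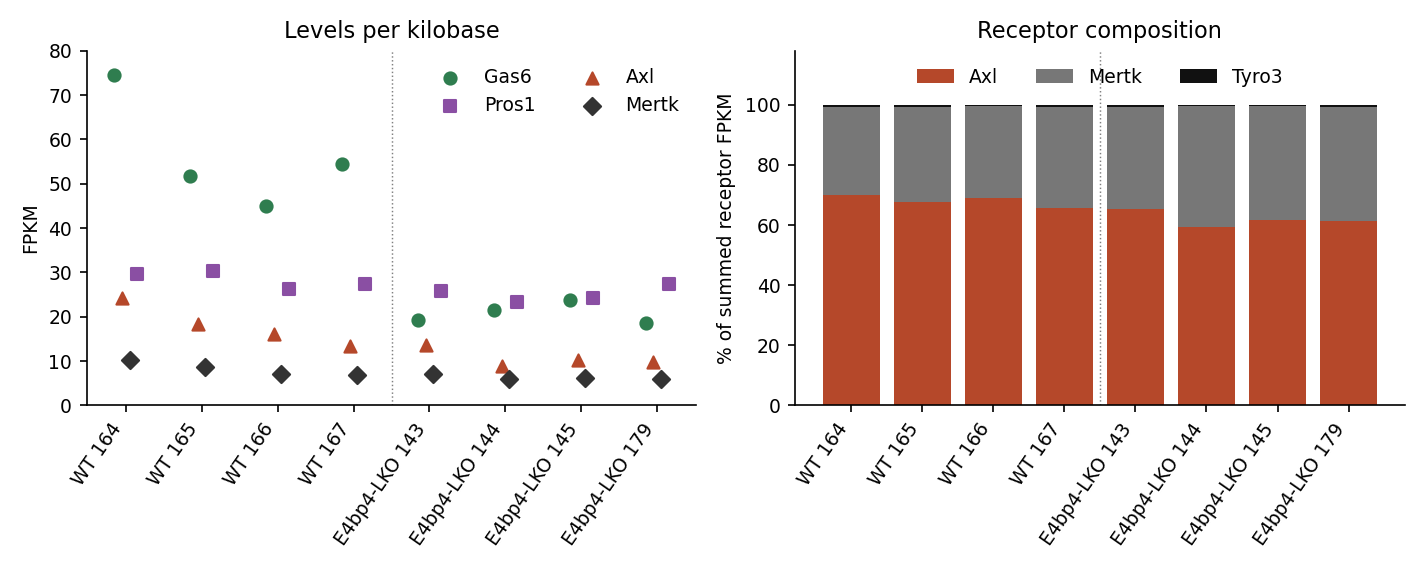
Left, FPKM (y axis) of Gas6, Pros1, Axl and Mertk in each liver, with points set apart sideways. Right, the percent of summed receptor FPKM (y axis) held by Axl, Mertk and Tyro3, as stacked bars with 1 bar for each mouse. Gas6 is above Pros1 in each WT liver and below it in each E4bp4-LKO liver, and the Axl bars reach 65.6 to 69.9% in WT mice and 59.5 to 65.4% in the knockouts.

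Gas6 and protein S need a vitamin K-dependent carboxylation to bind membranes. The list for this step held the carboxylase, the vitamin K reductases, other Gla proteins and C4bp, included as a protein S partner described in human plasma. Of 16 genes, 15 were tested, 1 fell and 0 rose in edgeR (against 6.48% and 4.36% of all genes tested). The median log2 fold change was 0.12. Prrg4, a membrane Gla protein, fell from 2.77 ± 1.15 to 1.14 ± 0.236 CPM (SD, n = 4 each), without overlap (log2 fold change -1.30, edgeR adjusted p = 0.0259). That call was lost without WT 165 (adjusted p = 0.0733), E4bp4-LKO 144 (0.0812), 145 (0.0635) or 179 (0.0510), and without WT 164 and 165 together the log2 fold change was -0.72 (edgeR adjusted p = 0.196). At an unadjusted p under 0.05, 2 genes of the list were lower and 6 higher (against 15.2% and 13.1% of all genes tested). DESeq2 called 2 lower and 3 higher (against 8.89% and 6.86% of its genes), and limma 1 and 0 (against 13.0% and 2.38%). The lower call of limma was Mgp (adjusted p = 0.0406), as Prrg4 did not pass the limma filter. Ggcx, the carboxylase, was at 50.1 ± 2.29 CPM in WT and 60.0 ± 5.26 CPM in E4bp4-LKO (edgeR adjusted p = 0.0540), and Vkorc1, the vitamin K epoxide reductase, was at 92.1 ± 10.2 and 113 ± 9.52 CPM (0.0650). For both, every E4bp4-LKO liver stood above every WT liver in TMM-normalised CPM, as held for 8.81% of all genes tested, but in FPKM the groups overlapped. With library totals the log2 fold change moved from 0.26 to 0.10 for Ggcx and from 0.30 to 0.15 for Vkorc1, and it was 0.19 for Vkorc1 without WT 164 and 165. Mgp, a Gla protein that inhibits calcification, had a log2 fold change of -0.77 (edgeR adjusted p = 0.0660), -0.94 with library totals (0.0441) and -0.41 without WT 164 and 165 (0.435).

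Receptor shedding and signalling genes formed the next list. Of 22 genes tested, 3 fell and 0 rose in edgeR (against 6.48% and 4.36% of all genes tested). The median log2 fold change was -0.06. Rhbdf1 and Rhbdf2 encode inactive rhomboid proteins that carry the sheddase ADAM17 to the cell surface, and Src encodes a tyrosine kinase. Rhbdf1 fell from 21.7 ± 2.05 to 14.7 ± 1.06 CPM (SD, n = 4 each, log2 fold change -0.56, edgeR adjusted p = 0.00557), a call that remained with each mouse left out. Rhbdf2 fell from 18.8 ± 1.46 to 14.5 ± 1.41 CPM (log2 fold change -0.37, edgeR adjusted p = 0.0314), and Src from 9.04 ± 2.93 to 4.43 ± 0.976 CPM (-1.03, 0.0242). All 3 were without overlap between groups. In the whole list, 4 genes were lower and 2 higher without overlap, against 9.69% and 8.81% of all genes tested. The Rhbdf2 call was lost without WT 164 (0.0711), 165 (0.0620) or 167 (0.0559) or E4bp4-LKO 143 (0.0552), 145 (0.0666) or 179 (0.0750), as edgeR adjusted p. The Src call was lost without WT 165 (edgeR adjusted p = 0.0674) or E4bp4-LKO 144 (0.0679) or 179 (0.0587). Without WT 164 and 165, Rhbdf1 was the 1 gene of the list still called, Rhbdf2 was at -0.35 (edgeR adjusted p = 0.145) and Src at -0.60 (0.147) on the log2 scale. Ifnar1, an interferon receptor chain through which TAM receptors can act, had a log2 fold change of 0.20 (edgeR adjusted p = 0.0939), or 0.041 with library totals (0.784). At an unadjusted p under 0.05, 8 genes of the list were lower and 1, Ifnar1, was higher (against 15.2% and 13.1% of all genes tested). DESeq2 called 3 lower and 0 higher (against 8.89% and 6.86% of its genes), and limma 4 and 0 (against 13.0% and 2.38%).

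The sheddases themselves were not called. Adam10 was at 50.4 ± 6.84 CPM in WT and 41.4 ± 4.76 CPM in E4bp4-LKO (SD, n = 4 each, edgeR adjusted p = 0.117). Adam17 was at 26.0 ± 3.37 and 21.4 ± 2.64 CPM (edgeR adjusted p = 0.133). Both genes are outside the rule for named genes and were chosen after their values were seen.

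Other genes of dead-cell clearance moved in both directions. Of 26 genes tested, 4 fell and 2 rose in edgeR (against 6.48% and 4.36% of all genes tested). The median log2 fold change was -0.19, or -0.022 without WT 164 and 165. Without adjustment, 11 genes of the list were lower and 5 higher at an edgeR p under 0.05 (against 15.2% and 13.1% of all genes tested). DESeq2 called 8 lower and 4 higher (against 8.89% and 6.86% of its genes), and limma 6 and 1 (against 13.0% and 2.38%). The 3 chains of C1q, a complement opsonin that bridges dying cells to phagocytes, fell together. C1qa fell from 127 ± 15.2 to 86.3 ± 5.02 CPM (SD, n = 4 each, log2 fold change -0.56, edgeR adjusted p = 0.00606). The log2 fold change was -0.63 for C1qb (edgeR adjusted p = 0.00717) and -0.56 for C1qc (0.0106). Tmem30a, the partner subunit of flippases that keep phosphatidylserine on the inner membrane leaflet, rose from 144 ± 8.19 to 196 ± 14.1 CPM (log2 fold change 0.44, edgeR adjusted p = 0.00911), with 0.29 under library totals (0.0242). These 4 calls remained with each mouse left out in turn and without WT 164 and 165.

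The fourth gene of the clearance list to fall was Elmo1, an engulfment adaptor, named after its values were seen (log2 fold change -0.59, edgeR adjusted p = 0.0405). Its call was lost with any 1 mouse other than WT 167 left out, at edgeR adjusted p = 0.0523 to 0.108, and the log2 fold change was -0.31 without WT 164 and 165.

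Liver X receptors induce Mertk in macrophages, so these receptors, their partners and their targets were listed too. Of 10 genes tested, 1 rose and 0 fell in edgeR (against 4.36% and 6.48% of all genes tested). The median log2 fold change was 0.09. Abca1, a cholesterol exporter, rose from 236 ± 9.73 to 297 ± 28.1 CPM (SD, n = 4 each, log2 fold change 0.34, edgeR adjusted p = 0.0361). That call was lost without WT 165 (edgeR adjusted p = 0.0775), WT 166 (0.0733), WT 167 (0.0647) or E4bp4-LKO 144 (0.107), 145 (0.0743) or 179 (0.0824), and with library totals in place of TMM (log2 fold change 0.17, 0.229). Abcg1, another exporter, had a log2 fold change of -0.41 (edgeR adjusted p = 0.0515), -0.58 with library totals (0.0359) and -0.23 without WT 164 and 165 (0.298). At an unadjusted p under 0.05, 2 genes of the list were lower and 3 higher (against 15.2% and 13.1% of all genes tested). DESeq2 called 1 lower and 3 higher (against 8.89% and 6.86% of its genes), and limma 1 and 0 (against 13.0% and 2.38%). Srebf1, a lipogenic target, was at 0.61 (edgeR adjusted p = 0.0682) and Rxra, the shared partner receptor, at 0.28 (0.0999) on the log2 scale, the latter at 0.13 with library totals and 0.17 without WT 164 and 165.

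**Figure D3:**
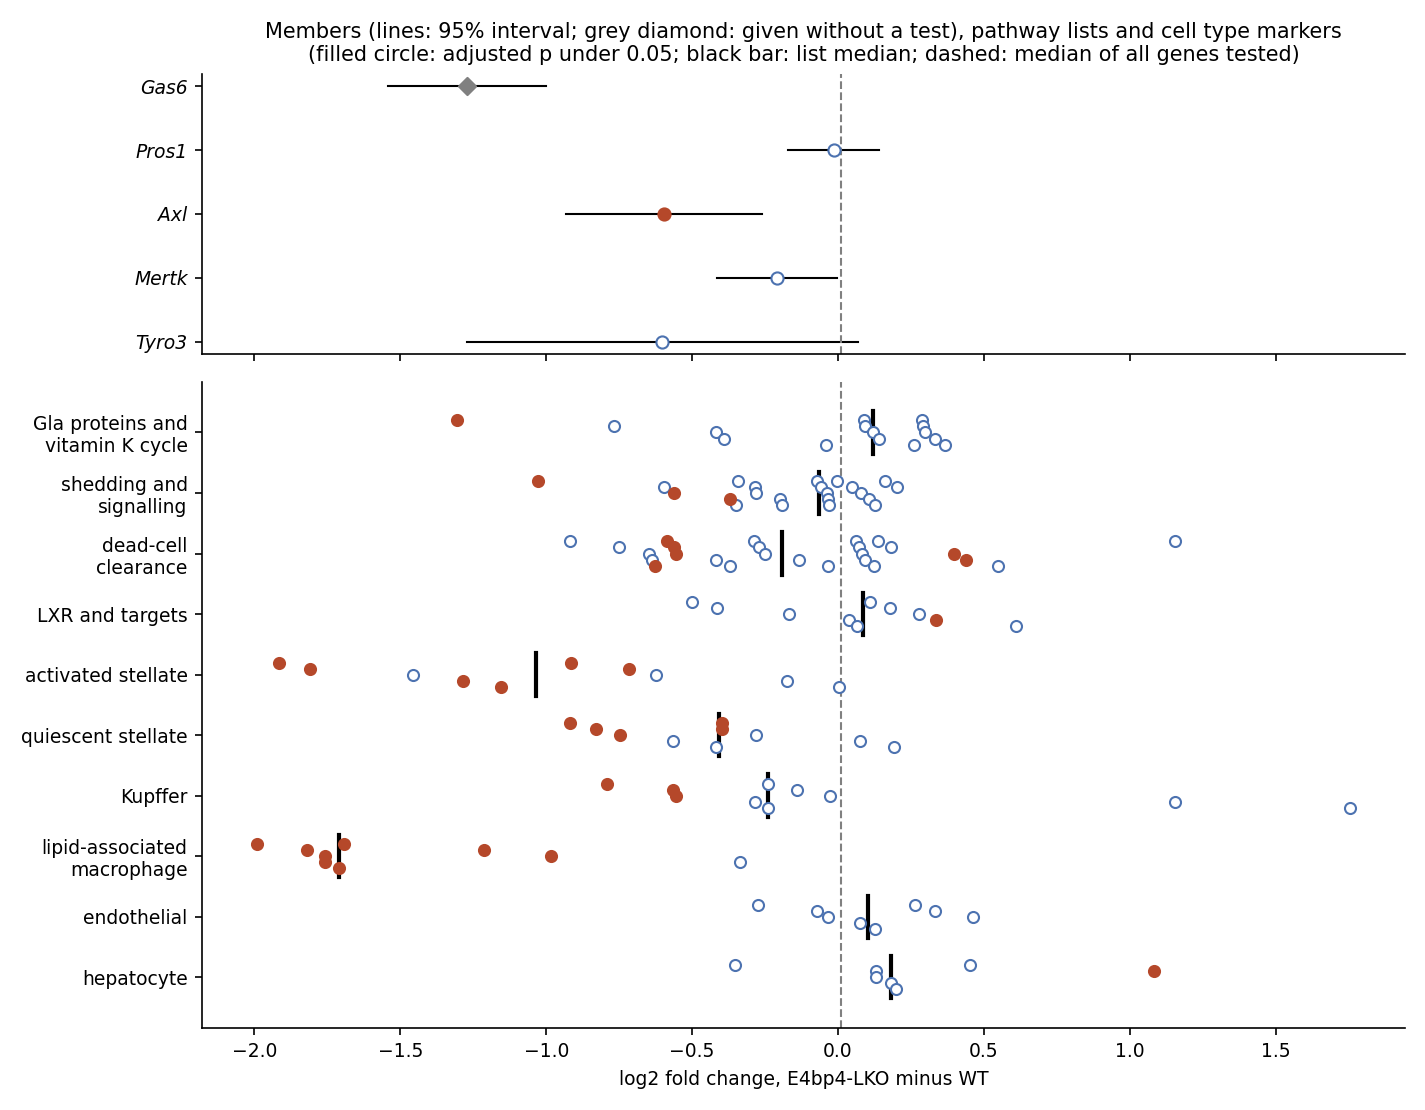
Log2 fold change (x axis, E4bp4-LKO minus WT) of the 5 members with 95% intervals above, and of the genes in pathway and cell type lists below. The cholangiocyte, mesothelial, platelet and T and NK cell lists are not drawn. Medians were -1.13 for the cholangiocyte list and -1.91 for the mesothelial list. Filled circles passed an edgeR adjusted p of 0.05, open circles did not, the grey diamond is Gas6 (no test), black bars are list medians and the dashed line is the median of all genes tested. Axl is the filled member, and the medians of the activated stellate and lipid-associated macrophage lists are at -1.03 and -1.71, or -0.75 and -1.10 without WT 164 and 165 (not drawn).

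Some markers of the cells known to carry TAM genes fell in E4bp4-LKO, and others did not pass the test. Of all genes tested, edgeR called 6.48% lower and 4.36% higher. Of 10 activated stellate cell markers 6 fell in edgeR, with summed levels of 489 to 1173 CPM in WT and 267 to 419 CPM in E4bp4-LKO. Of 10 quiescent stellate cell markers 5 fell, with sums of 415 to 462 and 360 to 441 CPM. Estimates were below 0 for 9 activated and 8 quiescent stellate markers. Acta2, an activated marker, had a log2 fold change of 0.0043 (edgeR adjusted p = 0.990). The quiescent markers Reln and Ecm1 were at 0.074 (0.757) and 0.19 (0.249). Of 9 markers of lipid-associated macrophages, the cells that gather around dying fat-laden hepatocytes, 8 fell, with sums of 384 to 926 and 167 to 222 CPM. Of 10 Kupffer cell markers 3 fell and 0 rose in edgeR, with sums of 701 to 848 and 513 to 744 CPM. In the other direction, 2 Kupffer markers were higher at an unadjusted p under 0.05, 1 was called higher in DESeq2 and 0 in limma. Of all genes, 13.1%, 6.86% and 2.38% were higher by these 3 measures. Timd4, a phosphatidylserine receptor, was at 1.16 on the log2 scale of fold changes (edgeR adjusted p = 0.0809). In CPM every E4bp4-LKO liver (4.41 or more) stood above every WT liver (4.28 or less), as held for 8.81% of all genes tested. In FPKM the Timd4 groups overlapped (1.91 or more against 1.96 or less). Marco, a scavenger receptor, was at 1.76 on the log2 scale (edgeR adjusted p = 0.173). The values of Acta2, Reln, Ecm1, Timd4 and Marco were picked out after they were seen. None of these markers was at 0 in any library, and their part in the levels of Gas6 and Axl was not tested.

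Without WT 164 and 165, 2 activated stellate, 1 quiescent stellate, 1 Kupffer and 4 lipid-associated macrophage markers were called lower, where edgeR called 1.53% of 13377 genes lower. The list medians were then -0.75 for activated stellate cells and -1.10 for lipid-associated macrophages, against -1.03 and -1.71 with all 8 libraries. WT 164 had the highest marker sum of all libraries for activated stellate cells, quiescent stellate cells and lipid-associated macrophages, and it also had the highest Gas6, Axl, Mertk and Tyro3 in CPM. The Kupffer list shares C1qa and Timd4 with the clearance list, and the activated stellate list shares Serpinh1 with the genes nearest to Gas6.

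Markers of other cells gave few calls in edgeR, which called 6.48% of all genes tested lower and 4.36% higher. At an unadjusted p under 0.05, 15.2% of all genes were lower and 13.1% higher. DESeq2 called 8.89% of its genes lower and 6.86% higher, and limma 13.0% and 2.38%. Of 8 endothelial markers 0 were called in edgeR, where 1 was higher at an unadjusted p under 0.05, and 1 was called higher in DESeq2 and 0 in limma. Of 7 hepatocyte markers 1 rose (Serpina1c) and 0 fell in edgeR, with a median log2 fold change of 0.18 and 1 estimate below 0. In this list 1 was lower and 2 higher at an unadjusted p under 0.05, and the same counts held in DESeq2. In limma 1 was lower and 1 higher. Of the 5 cholangiocyte markers 0 were called, although 4 were lower at an unadjusted p under 0.05 and 3 in DESeq2 (0 in limma), with sums of 30.8 to 60.0 CPM in WT and 29.3 to 42.2 CPM in E4bp4-LKO. The 3 platelet, 5 T and NK cell and 4 mesothelial markers were at summed levels of at most 10.6 CPM, with 0 calls in edgeR. At an unadjusted p under 0.05, 1 platelet and 2 mesothelial markers were lower and 1 T and NK cell marker was higher, DESeq2 called 2 mesothelial markers lower, and limma called 0. Msln, Upk3b and Lrrn4, which mark mesothelium, were at 0 in some libraries. The median log2 fold changes of the cholangiocyte and mesothelial lists were -1.13 and -1.91, or -0.27 and -2.33 without WT 164 and 165. Low medians were thus not particular to the stellate and lipid-associated macrophage lists.

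The genes whose levels followed Gas6 most closely were ranked by the root mean square difference of log2 CPM over the 8 livers, after each gene's mean was subtracted. Among 10614 genes the nearest was Jdp2, a basic leucine zipper repressor, at a distance of 0.152. It was followed by Snai1, a zinc finger repressor (0.161), Tmprss2, a transmembrane serine protease (0.177), and Klf6, a Krüppel-like factor (0.200). Next came Gpx3, a secreted glutathione peroxidase (0.203), and Serpinh1, the collagen chaperone of the endoplasmic reticulum (0.209). These 6 genes had log2 fold changes of -1.23 to -0.92, which the way they were chosen brings near to that of Gas6. Axl stood at rank 483 with a distance of 0.430, Mertk at rank 1573 (0.559) and Pros1 at rank 4319 (0.662), and Tyro3 was under the FPKM minimum of 1 and was not ranked. The distance includes the difference between the groups, on which Gas6 was selected. The ranks of the members thus largely restate their fold changes and are given as a description.

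**Figure D4:**
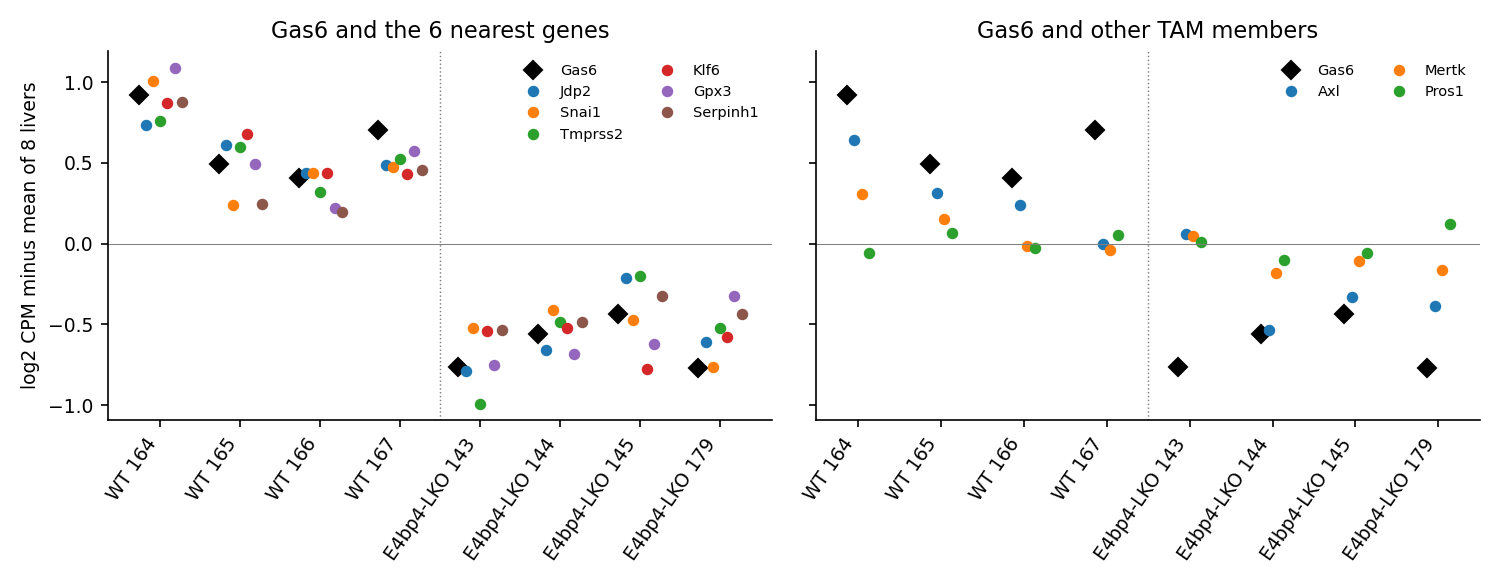
Log2 CPM minus each gene's mean over the 8 livers (y axis) in each mouse (x axis), for Gas6 (black diamonds) with its 6 nearest genes on the left and with Axl, Mertk and Pros1 on the right. Points of a mouse are set apart sideways for legibility. The nearest genes lie within a distance of 0.209 of Gas6, while Axl is at 0.430 and Pros1 at 0.662.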

How the data were processed

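RNA-seq of 8 livers (4 WT, 4 E4bp4-LKO) was analysed from 1 table per mouse, grouped by the labels. The deposited tables hold expected counts (estimated, 25.9% to 27.3% of entries fractional) and FPKM, scaled by the authors for effective length and library, beside transcript lengths. The aligner was HISAT2, per the submitters' processing notes, and its version, the quantifier, the strand, the build and the annotation are not given. Per the labels' protocols, mRNA was enriched by either poly(A) capture or removal of ribosomal RNA, with no statement of which served a given library. Genes missing from a table were read as 0, and 26 isoform entries were added to their gene. Gas6, Pros1 and Mertk had 1 transcript each, Tyro3 had 2 and Axl had 3, whose shared reads were estimated.

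Expected counts were rounded and fitted in edgeR 4.0.16 (R 4.3.3) with filterByExpr (minimum count 10, total 15), TMM and the robust quasi-likelihood test, two-sided, E4bp4-LKO minus WT. Adjusted p-values are Benjamini-Hochberg over all 13244 genes tested, with a threshold of 0.05, and intervals are 95%. CPM are TMM-normalised. Percent shares of receptor FPKM were computed per liver and compared by an exact permutation test. Alternatives were DESeq2 1.42.0, other scalings and filters, limma 3.58.1 on log2(FPKM + 1) and log2(FPKM + 0.1), and fits without single mice or without WT 164 and 165. The fit was tested on simulated data. Where limma is named in the text without more detail, it is on log2(FPKM + 1). The members and lists were chosen with earlier results of these data known, so their counts are not independent support. Named genes were the members, Nfil3, up to 4 genes with the smallest p in each list and the 6 nearest to Gas6 (genes with mean FPKM of at least 1, without predicted models). The detection floor covers counting error alone, as duplicate reads could not be told from separate molecules. Promoter windows came from RefSeq (GRCm38.p6), where all 5 members matched. The values of 1 gene of the clearance list are not reported here.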

Additional observations from a re-analysis of the deposited data

How the results depend on the processing

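Gas6 kept its direction in every fit run, at -1.44 with library totals in place of TMM. That scaling moved the median of all genes by -0.158 on the log2 scale, so differences are best read relative to it. Pros1 was at -0.17 under it (edgeR adjusted p = 0.146) and ranged from -0.0583 to 0.0165 with single mice left out. It changed sign without WT 165, WT 167, E4bp4-LKO 144 or E4bp4-LKO 145. Axl was at -0.70 in limma without a filter (adjusted p = 0.0530), at -0.40 without WT 164 and 165 (edgeR adjusted p = 0.219) and at -0.73 to -0.47 with single mice left out, always lower. Its share of receptor FPKM differed by -5.34 points without WT 164 and 165 and by -7.16 to -5.19 with single mice left out. Tyro3 did not pass the filters of 5 CPM or 1 FPKM in 4 libraries and has no value there. The cause of these shifts was not tested. No paired analysis was possible because the groups share no mouse numbers.

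Genes called higher numbered 578 in edgeR, 972 in DESeq2, 291 with library totals, 260 and 257 in limma with a pseudocount of 0.1 and 1, 215 in limma without a filter, 182 without WT 164 and 165, and 235 to 608 with single mice left out. Genes called lower numbered 858, and 1660 with library totals, 1449 and 1402 in limma with those pseudocounts, 205 without WT 164 and 165, and 271 to 932 with single mice left out. For the clearance list, genes called higher numbered 4 in DESeq2 and 1 with library totals, in each limma fit and without WT 164 and 165 (1 to 3 with single mice left out). Those called lower numbered 8 in DESeq2 and with library totals and 7 in limma with a pseudocount of 0.1 (3 to 8). For the Gla list, 3 were higher in DESeq2 (0 to 2 with single mice left out). Lower calls there were 2 in DESeq2 and with library totals, and 0 with the 5 CPM filter, in limma without a filter and without WT 164 and 165 (0 to 2). Prrg4 did not pass the filters of 5 CPM or 1 FPKM in 4 libraries, so it could not be called there. For the liver X receptor list, 3 were higher in DESeq2 and 0 with library totals, in each limma fit and without WT 164 and 165 (0 to 1). Lower calls there were 1 in DESeq2, with library totals, in both filtered limma fits and without the count filter (0 to 1). The shedding and signalling list had 1 lower call without WT 164 and 165 (1 to 3 with single mice left out).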

Other observations

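The genes next to each member in the genome were also read, as a choice made after the values were seen. Neighbours were taken from the order of genes in the RefSeq table for GRCm38.p6. Around Gas6, Tmem255b overlaps the gene and had at most 2 expected counts in any library, and Grk1, the nearest tested gene, had a log2 fold change of 0.23 (edgeR adjusted p = 0.276). Around Axl, Hnrnpul1, an RNA-binding protein, was at -0.03 (edgeR adjusted p = 0.838) and Cyp2s1, a cytochrome P450, at -0.79 (0.219). The genes beside Pros1 (Arl13b and Epha3), Mertk (Anapc1 and Tmem87b) and Tyro3 (Rpap1 and Mga) had log2 fold changes of -0.26 to 0.25. None of these 9 neighbours passed the edgeR test.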
